A study of Mus musculus with 10 samples.

Results

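The genes described here are the 8 genes of MHC class I antigen presentation H2-K1, H2-D1, H2-T23, B2m, Tap1, Tap2, Tapbp and Nlrc5, matched by symbol to 8 of the 28185 gene identifiers in the count table. They were measured by RNA sequencing of Ly6G+ cells, a bead enrichment for mouse neutrophils, from male C57Bl/6J mice aged 12 to 16 weeks at day 3 after permanent ligation of the left coronary artery. All 4 groups came from infarcted mice. MI (n = 3 libraries) holds cells of the infarcted heart without mesenchymal stromal cells (MSC), and MI + MSC (n = 3) holds cells of the heart after subcutaneous MSC treatment, given as 3 injections of 1000000 cells. Blood (n = 2) and Blood + MSC (n = 2) hold circulating cells without and with the same treatment. The MSC were syngeneic bone marrow cells, given within an hour of the ligation. Mice without infarction were not analysed here, and the labels name neither the mouse behind a library nor any pairing of heart with blood, so the p-values measure the spread between these libraries. Single animals are named as the experimental unit in the methods, and a figure legend gives 3 mice per group, while each blood group here has 2 libraries. Libraries are called by their number in the labels, and values are listed in the order 13, 19, 20 (MI), 15, 17, 18 (MI + MSC), 21, 22 (Blood) and 23, 24 (Blood + MSC).

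MHC class I molecules show peptides from inside the cell to CD8 T cells and NK cells. The heavy chain, encoded by H2-K1 or H2-D1 for the classical molecules and by H2-T23 for the nonclassical Qa-1, pairs with the light chain B2m. Tap1 and Tap2 together form the pump that carries peptides into the endoplasmic reticulum, and Tapbp (tapasin) bridges this pump to the empty heavy chain. Nlrc5 is the transactivator that acts on class I promoters, and interferons raise most of these genes.

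Reads on genes ranged from 148594 in MI 13 and 268860 in Blood 21 to 8602711 in Blood + MSC 24, so 1 read stands for 8.40 normalized counts in MI 13 and 7.07 in Blood 21, and for 0.168 to 2.30 in the others. The 8 genes took 0.307% of the reads in MI 13, 1.23% in Blood 21 and 0.555% to 0.748% in the other 8 libraries. The 12 neutrophil markers, S100a8 and Ly6g among them, summed to 2547 to 13564 normalized counts in the 6 cardiac libraries, below the 16764 to 53435 of the 4 blood libraries. The 8 cardiomyocyte markers, such as Myh6, summed to 3040 to 23530 in the heart but 22.3 to 63.6 in blood. The 9 endothelial markers summed to 466 to 2237 in the heart but 42.6 to 742 in blood. The 5 platelet markers found, such as Pf4, summed to 23938 in Blood 21 and to between 437 and 1747 in every other library. The 6 erythroid markers, such as Hbb-bs, summed to 50.02 to 294 in the heart but 480 to 9467 in blood. Several of these sums move with results below, and the part of each sum in them was not tested. In such bulk libraries, fewer cells of a type and less RNA per cell cannot be told apart.

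The promoters show what the 2 classical heavy chain genes have in common and where the others differ. RefSeq sequence of GRCm38.p6 was matched for 6 of the 8 genes, not for Tap2 and Nlrc5. RefSeq gives H2-K1 a pair of start sites, and the sequence before one of them is shown. In these runs of 250 bases before the start site, read 5′ to 3′ along the gene, capitals mark GGGNNTTCC (a kappa B motif), AANNGAAAC (the core of an interferon response element), TGACG (as in the X2 box) and CCAAT (the Y box), each searched on both strands (ATTGG is CCAAT on the opposite strand). None of the marked matches overlap.

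H2-K1 (chr17:34000334-34000583, minus strand): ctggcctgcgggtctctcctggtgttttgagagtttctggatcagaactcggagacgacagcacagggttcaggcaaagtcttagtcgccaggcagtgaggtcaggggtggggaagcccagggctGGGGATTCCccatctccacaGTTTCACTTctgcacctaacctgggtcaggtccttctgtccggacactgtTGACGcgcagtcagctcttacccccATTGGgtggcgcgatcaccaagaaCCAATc

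H2-D1 (chr17:35262844-35263093, plus strand): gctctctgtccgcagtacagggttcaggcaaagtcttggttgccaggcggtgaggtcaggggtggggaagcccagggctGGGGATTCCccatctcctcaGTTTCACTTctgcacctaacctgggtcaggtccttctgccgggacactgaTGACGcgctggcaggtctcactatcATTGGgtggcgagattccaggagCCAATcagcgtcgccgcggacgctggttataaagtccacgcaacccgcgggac

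B2m (chr2:122147437-122147686, plus strand): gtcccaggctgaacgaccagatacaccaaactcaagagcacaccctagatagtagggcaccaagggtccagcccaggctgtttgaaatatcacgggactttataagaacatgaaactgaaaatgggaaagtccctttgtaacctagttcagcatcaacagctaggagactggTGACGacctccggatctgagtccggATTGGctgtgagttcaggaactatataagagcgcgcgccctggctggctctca

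H2-T23 (chr17:36032702-36032951, minus strand): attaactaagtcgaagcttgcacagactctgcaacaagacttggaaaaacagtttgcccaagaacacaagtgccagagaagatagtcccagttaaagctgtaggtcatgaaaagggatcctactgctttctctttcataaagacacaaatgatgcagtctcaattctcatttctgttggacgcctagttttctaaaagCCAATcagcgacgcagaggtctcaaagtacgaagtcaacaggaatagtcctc

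H2-K1 and H2-D1 held all 4 motifs in the same order, with the interferon element on the opposite strand. For the alignments, H2-K1 was taken before its other start site (34000348 to 34000597), not as shown. That run and the H2-D1 run were identical at 170 of 190 aligned bases (89.5%). The other pairs of the 6 promoters were identical at 56.2% to 64.3% of their aligned bases. B2m, the light chain gene, held TGACG and CCAAT. H2-T23 held CCAAT, Tap1 held CCAAT and TGACG, and Tapbp held CCAAT alone. The same length before the start site was searched in 32851 mouse promoter sequences. Of these, 33.8% held CCAAT, 17.8% held TGACG, 4.98% held GGGNNTTCC and 4.95% held AANNGAAAC. A match is a string of letters and no measure of binding.

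H2-D1, the classical heavy chain gene with the most RNA, was lower in the heart than in blood. On GRCm39 it lies on chromosome 17, plus strand, from 35481691 to 35486475 (ENSMUSG00000073411). The MI libraries held 1336, 3476 and 2837 normalized counts, the MI + MSC libraries 3764, 3834 and 3001, the Blood libraries 9461 and 7276, and the Blood + MSC libraries 5201 and 4085. Every blood library thus lay above every cardiac library. The estimate for MI minus Blood was a log2 fold change of -1.81 ± 0.58 (SE), called by limma (adjusted p = 0.0323), but this call was lost without Blood 21 (adjusted p = 0.128) and in 9 of the other 18 alternative settings. The estimate itself was -1.62 without Blood 21 and -2.09 to -1.21 over all 19 settings. Between MI + MSC and Blood + MSC the difference was -0.39 ± 0.58 and did not pass (adjusted p = 0.678).

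H2-K1, the other classical heavy chain gene (chromosome 17, minus strand, 34214987 to 34219321, ENSMUSG00000061232), differed less between the tissues. The MI libraries held 807, 1742 and 1511 normalized counts, the MI + MSC libraries 2272, 2282 and 1751, the Blood libraries 2388 and 1976, and the Blood + MSC libraries 1548 and 1480. Pooled over treatment, the cardiac and blood ranges overlapped widely, with medians of 1746 in the heart and 1762 in blood. Without MSC all MI libraries lay below all Blood libraries, as for 23.6% of all tested genes. All MI + MSC libraries lay above all Blood + MSC libraries, as for 33.8% of them. The log2 fold change of MI against Blood was -0.76 ± 0.44 (limma adjusted p = 0.198) and that of MI + MSC against Blood + MSC was 0.46 ± 0.44 (adjusted p = 0.504). Without MI 13 the value for MI against Blood was -0.42. Over the 19 alternative settings it ran from -0.98 to -0.23 and was never called.

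H2-T23 (chromosome 17, minus strand, 36340229 to 36345571, ENSMUSG00000067212) gave the firmest difference. Qa-1, its product, is a ligand of the NK cell receptor CD94/NKG2A. The MI libraries held 185, 359 and 309 normalized counts and the MI + MSC libraries 314, 202 and 288, whereas the Blood libraries held 876 and 923 and the Blood + MSC libraries 452 and 493. No cardiac library reached the lowest blood library. MI minus Blood gave -1.71 ± 0.34 on the log2 scale (limma adjusted p = 0.00393), and this call held in all 19 alternative settings. With MSC the difference was -0.84 ± 0.34 (adjusted p = 0.122), which passed with DESeq2, without MI 13 and without both MI 13 and Blood 21. MI 13 held only 22 reads of this gene and Blood 21 held 124.

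B2m (chromosome 2, plus strand, 121977957 to 121983594, ENSMUSG00000060802) was set apart by a single library. The MI libraries held 933, 2603 and 2055 normalized counts, the MI + MSC libraries 2722, 2932 and 2240, the Blood libraries 9390 and 2696, and the Blood + MSC libraries 1793 and 1575. Blood 21, the library with the high platelet sum, stood at 9390, and the 9 others lay between 933 and 2932. MI against Blood gave -1.56 ± 0.62 (limma adjusted p = 0.0699), and MI + MSC against Blood + MSC gave 0.64 ± 0.62 (adjusted p = 0.511). The MI against Blood difference of B2m was called by edgeR (-1.72, adjusted p = 0.0293), by DESeq2 (-1.72, adjusted p = 0.00377) and by limma without Blood 22 (-2.46, adjusted p = 0.0208). Without Blood 21 the limma value was -0.66 (limma adjusted p = 0.466).

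**Figure D1:**
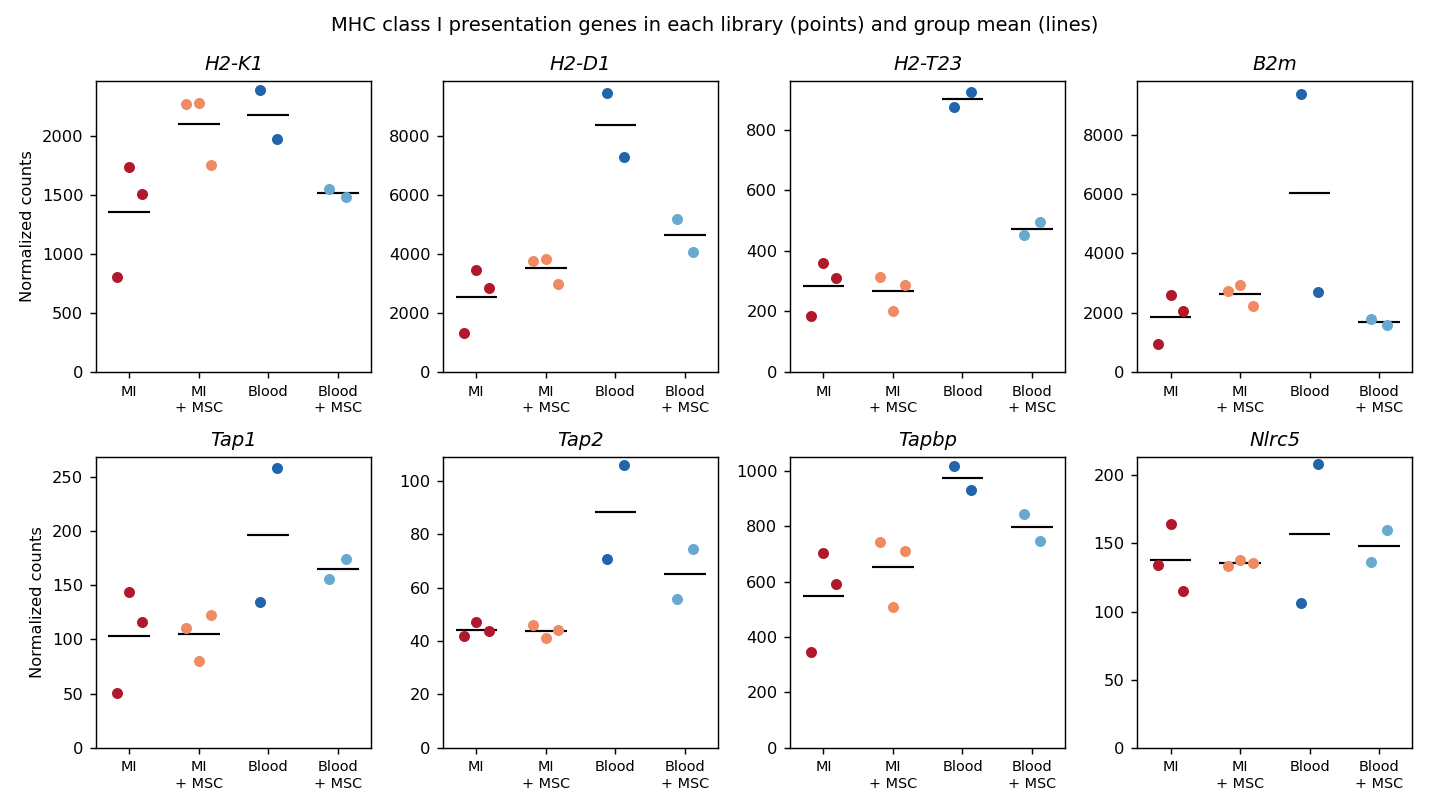
Normalized counts (linear axis from 0) of the 8 genes in the 10 libraries, with 1 point per library and a line at the group mean. H2-T23 lies at 185 to 359 in the heart and at 452 to 923 in blood, and 1 Blood library holds 9390 normalized counts of B2m.

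Both subunits of the peptide pump were read at far lower levels. Tap2 (chromosome 17, plus strand, 34422501 to 34435829, ENSMUSG00000024339) had values of 42.0, 47.1 and 43.7 normalized counts for the MI libraries, 45.96, 41.3 and 44.1 for MI + MSC, 70.7 and 105.9 for Blood, and 55.7 and 74.4 for Blood + MSC. The 6 cardiac values lay close together and below all 4 blood values, although MI 13 and Blood 21 rested on 5 and 10 reads. For Tap2 the difference MI minus Blood, -0.94 ± 0.30 on the log2 scale, was called (limma adjusted p = 0.0307), a call lost in 6 of 19 alternative settings and smallest on scaling by library size (-0.43, adjusted p = 0.292). Tap1 (chromosome 17, plus strand, 34405996 to 34416199, ENSMUSG00000037321) had values of 50.4, 143 and 116 for the MI libraries, 111, 80.4 and 122 for MI + MSC, 134 and 258 for Blood, and 156 and 174 for Blood + MSC. MI 19 lay above Blood 21, and the difference of MI from Blood (-0.96 ± 0.44) did not pass (adjusted p = 0.106), but was called without both MI 13 and Blood 21 (-0.99, limma adjusted p = 0.0270). The Tap1 difference shrank to -0.52 without MI 13 alone (limma adjusted p = 0.264). With library size scaling it was -0.45 (limma adjusted p = 0.419).

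Tapbp (chromosome 17, plus strand, 34134873 to 34148267, ENSMUSG00000024308) had values of 345, 704 and 593 normalized counts for the MI libraries, 744, 507 and 709 for MI + MSC, 1017 and 932 for Blood, and 844 and 747 for Blood + MSC. The highest cardiac library, at 744, was just below the lowest blood library, at 747. The difference of MI from Blood was -0.89 ± 0.37 (limma adjusted p = 0.0799), and DESeq2 called it (-0.79, adjusted p = 0.0409). Nlrc5 (chromosome 8, plus strand, 95160984 to 95253900, ENSMUSG00000074151) had values of 134, 164 and 115 for the MI libraries, 133, 138 and 136 for MI + MSC, 106 and 209 for Blood, and 136 and 160 for Blood + MSC. Its libraries overlapped in every comparison. MI against Blood gave -0.12 ± 0.32 (limma adjusted p = 0.786).

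Per kilobase of exon, the mean levels over the 10 libraries ran from 1480 for H2-D1 and 1374 for B2m through 558 for H2-K1, 162 for Tapbp and 128 for H2-T23 to 22.4 for Tap1, 16.8 for Nlrc5 and 11.98 for Tap2. The length used merges all annotated exons of a gene, so these levels compare only roughly between genes. Library by library H2-D1 ran from 447 to 3162 per kilobase and B2m from 443 to 4459, so the order of these 2 lay within their spread. So did that of Tapbp (78.2 to 231) and H2-T23 (53.95 to 269), and that of Tap1 (8.39 to 42.9), Nlrc5 (12.5 to 24.6) and Tap2 (8.67 to 22.2). H2-D1 had a higher mean normalized count than 99.9% of the 11549 tested genes, and Tap2 a higher one than 55.2%. The ratio of the highest to the lowest library was 10.1 for B2m, 7.08 for H2-D1 and 1.97 for Nlrc5, the widest, the next and the narrowest range. For both B2m and H2-D1 the highest library was Blood 21 and the lowest MI 13, the libraries with the fewest reads. Apart from Blood 21, B2m lay between 933 and 2932 normalized counts, so its place as the widest rests on that library.

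In all, limma called 3 of the 8 genes lower in MI than in Blood and none higher, where 13.5% of all tested genes were called lower. The median log2 fold change of the 8 genes was -0.95, against 0.15 over all tested genes. With MSC in both tissues, 0 of 8 were called, against 5.85% of all genes called lower, although H2-T23 had an unadjusted p of 0.0316 by limma. Their median there was -0.35, against 0.09 over all tested genes. Without regard to MSC, the 6 cardiac libraries all lay below the 4 blood libraries for H2-D1, H2-T23, Tap2 and Tapbp, that is 4 of 8 genes against 14.0% of all tested genes. For each of these 4 a two-sided exact permutation test of the 10 log2 values gave p = 0.00952, the smallest that 6 against 4 libraries allow. Any gene without overlap gets this value, so it restates the separation and adds no further evidence. Of the other genes among these 8 tests, Tap1 gave p = 0.0190, B2m 0.495, Nlrc5 0.562 and H2-K1 0.724 by the same exact test. These 8 p-values were not adjusted. The neutrophil and erythroid marker sums are also higher in all blood libraries, and the cardiomyocyte marker sum higher in all cardiac ones.

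**Figure D2:**
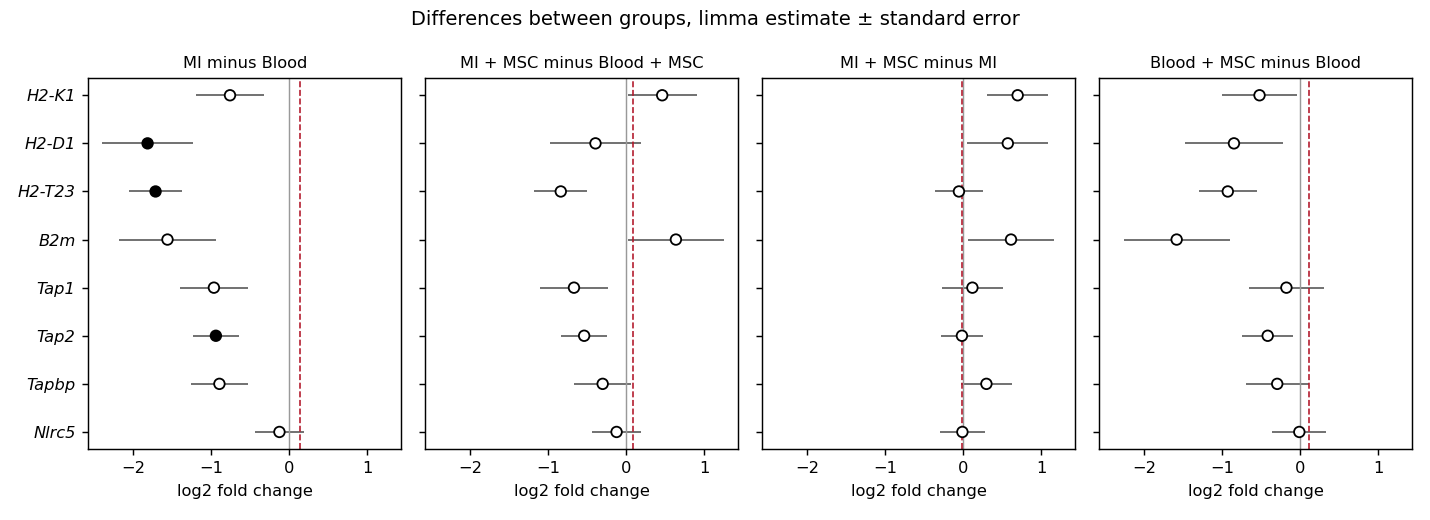
Log2 fold changes of the 8 genes in 4 comparisons (points, limma estimate on log2 of normalized count plus 2, bars the standard error, filled where called, dashed line the median of all tested genes). The 3 filled points, H2-D1 at -1.81, H2-T23 at -1.71 and Tap2 at -0.94, all belong to MI minus Blood.

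MSC treatment called none of the 8 genes in either tissue by limma or edgeR, and DESeq2 called B2m in blood. In the heart, H2-K1 had a log2 fold change of 0.70 ± 0.39 (limma adjusted p = 0.650), B2m 0.61 ± 0.55 and H2-D1 0.57 ± 0.52 (both adjusted p = 0.735). Without MI 13, the library of 148594 reads, these fell to 0.36, 0.18 and 0.16, and the median of the 8 genes went from 0.21 to -0.01. H2-K1 was the member for which every MI + MSC library, the lowest at 1751, lay above every MI library, the highest at 1742, and 7.05% of all tested genes did so. The other 5 genes had log2 fold changes between -0.05 and 0.30, with signs that turned for all 5 of them under other scalings or with a library left out, as given among the limits. The background is 0% of genes called by limma in the heart. At an unadjusted p under 0.05 there were 925 genes, none of the 8 among them, and edgeR called 0 genes and DESeq2 79, again none of the 8. The endothelial marker sum was 2019 to 2237 in MI but 466 to 881 in MI + MSC, and the platelet marker sum was 437 to 614 in MI but 820 to 1747 in MI + MSC. The part of both in these values was not tested.

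In blood, all 8 log2 fold changes were below 0, although those of Tap1, Tapbp and Nlrc5 were above 0 on scaling by library size and that of Nlrc5 also with TMM scaling. They were -1.58 ± 0.68 for B2m, -0.93 ± 0.37 for H2-T23, -0.85 ± 0.63 for H2-D1, -0.52 ± 0.48 for H2-K1 and -0.42 ± 0.32 for Tap2, and between -0.29 and -0.01 for Tapbp, Tap1 and Nlrc5. None passed, with limma adjusted p-values of at least 0.672, and 0% of all tested genes were called. At an unadjusted p under 0.05 limma had 848 genes, with H2-T23 and B2m the members among them, edgeR called 0 genes, and DESeq2 called 179, with B2m (log2 fold change -1.93, adjusted p = 0.0360) among them. B2m, however, was high in Blood 21 alone, and without that library its change was -0.68 by limma. For H2-K1, H2-D1, H2-T23, B2m and Tapbp both Blood + MSC libraries lay below both Blood libraries, 5 of 8 genes against 15.4% of all tested genes. The neutrophil marker sum was also lower with MSC, 23725 and 16764 with treatment against 44788 and 53435 without, as was the platelet marker sum, 664 and 564 with treatment against 23938 and 1048 without. The endothelial sum was lower too, 42.6 and 52.8 with treatment against 742 and 70.2 without. So was the cardiomyocyte sum, 22.3 and 25.9 with treatment against 63.6 and 33.1 without. The part of these sums in the class I values was not tested. The smaller of the 2 Blood libraries rests on 268860 reads.

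The difference between the MSC effect in the heart and that in blood was tested as an interaction. All 8 estimates were above 0, although those of Nlrc5, Tap1 or Tap2 fell below 0 in 7 of 19 alternative settings, from 0.00 for Nlrc5 to 2.19 ± 0.87 for B2m, and limma called none of them (adjusted p of at least 0.630), with 0% of all tested genes called. At an unadjusted p under 0.05 there were 838 genes, with B2m alone of the 8, while edgeR called 0 genes and DESeq2 called 20, B2m among them (adjusted p = 0.0431). The B2m estimate by limma was 1.29 without Blood 21, 3.09 without Blood 22 and 0.86 without both MI 13 and Blood 21.

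The balance between the 2 classical heavy chains does not depend on how the libraries were scaled, since both are read in the same library. H2-K1 gave 37.6%, 33.4% and 34.7% of the summed reads of H2-K1 and H2-D1 in MI 13, 19 and 20, and 37.6%, 37.3% and 36.8% in MI + MSC 15, 17 and 18. In blood the share was 20.2% and 21.4% in Blood 21 and 22, and 22.9% and 26.6% in Blood + MSC 23 and 24. Exact Clopper-Pearson 95% intervals, which cover counting error only, reached down to 31.7% in MI 13 and up to 27.1% in Blood + MSC 24, so the tissues were apart even in the library with 255 reads of both genes.

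Per kilobase, the ratio of H2-K1 to H2-D1 was 0.471 to 0.567 in the 6 cardiac libraries and 0.237 to 0.340 in the 4 blood libraries. The ratio was 1.94-fold higher in the heart (difference of mean log2 ratios 0.95, SD 0.11 in heart and 0.23 in blood, two-sided exact permutation p = 0.00952, n = 6 and 4). It was 2.08-fold higher in MI than in Blood and 1.81-fold higher in MI + MSC than in Blood + MSC, each with exact p = 0.2, the smallest that 3 against 2 libraries allow. Leaving out each library in turn gave 1.84-fold to 2.08-fold, and the groups stayed apart each time. Within the heart the MI and MI + MSC ratios overlapped (1.09-fold, exact p = 0.4). Within blood both Blood + MSC ratios lay above both Blood ratios (1.25-fold, exact p = 0.333, the smallest possible).

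This comparison was chosen after the values were seen, and H2-D1 enters both sides of many like ratios. The ratio of a gene to H2-D1 was higher in all cardiac than in all blood libraries for 38.7% of the other tested genes. Of the 28 pairs among the 8 genes, 5 had ratios that did not overlap between heart and blood, a smaller share than the 33.3% among all pairs of tested genes. They were H2-K1 with H2-D1, H2-K1 with H2-T23, and Nlrc5 with H2-T23, Tap1 and Tap2. Of the 100-base windows in their transcripts, 2.03% of those of H2-K1 and 2.53% of those of H2-D1 also occur in another gene, 23 windows being common to both, so a small part of their reads could be assigned to a relative. The corresponding share was 2.57% for H2-T23, 12.2% for Tapbp, which overlaps Zbtb22, and 0% for the other 4 genes.

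**Figure D3:**
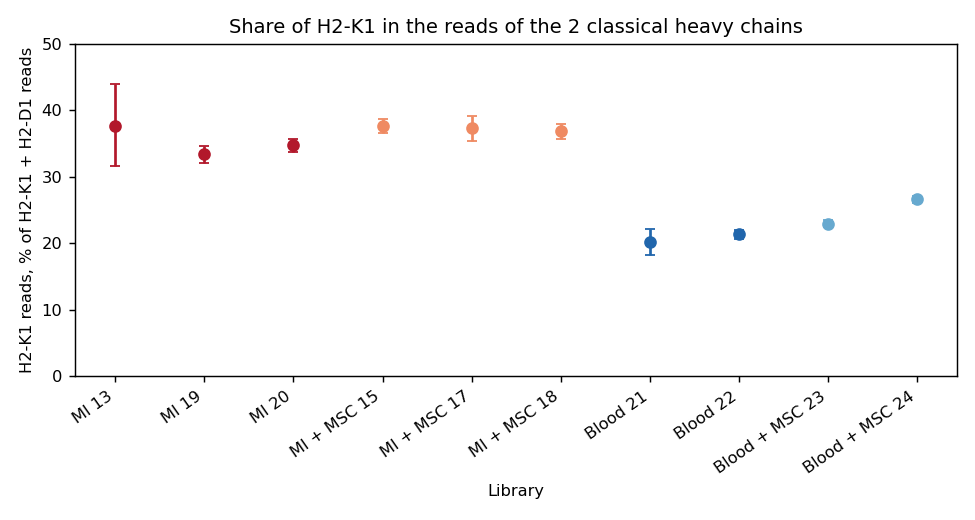
H2-K1 reads as a percentage of H2-K1 plus H2-D1 reads in each library, with exact 95% intervals for counting error (colours as the 4 groups). The 6 cardiac libraries lie between 33.4% and 37.6% and the 4 blood libraries between 20.2% and 26.6%.

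The light chain was also set against the heavy chains. B2m per kilobase over the sum of H2-K1 and H2-D1 per kilobase stood at 0.633, 0.723 and 0.686 for the MI libraries and at 0.656, 0.697 and 0.685 for MI + MSC. It was 0.419 in Blood 22, 0.383 and 0.409 in Blood + MSC, and 1.14 in Blood 21. The blood libraries thus fell on both sides of the heart. Over all 10 libraries heart and blood did not differ by the exact permutation test (difference of mean log2 ratios 0.37, p = 0.305), and leaving out each library other than Blood 21 gave exact p-values of 0.270 to 0.667. Without Blood 21, the library that made the groups overlap, the heart was 1.67-fold higher (exact permutation p = 0.0238). Blood 21 is singled out here because of its value, so no conclusion is drawn from this p-value. B2m is known as an abundant transcript of platelets, and the platelet marker sum of Blood 21 was 23938. Its part in this ratio was not tested.

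**Figure D4:**
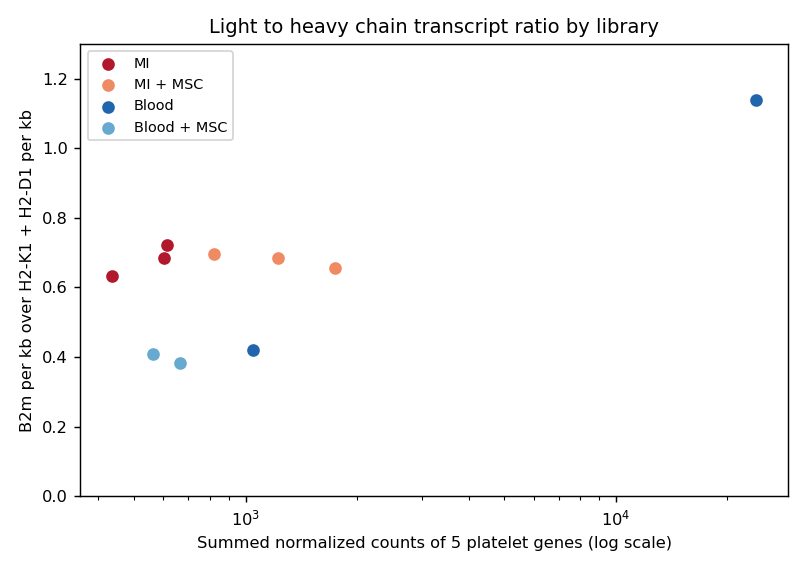
B2m per kilobase over H2-K1 plus H2-D1 per kilobase (linear axis from 0) against the summed normalized counts of 5 platelet genes (log axis), with 1 point per library coloured by group. Blood 21 stands alone at 1.14 and 23938, and the other blood libraries lie between 0.383 and 0.419, below the heart at 0.633 to 0.723.

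The wider class I pathway was read from 6 lists with 55 genes, of which 49 were tested. In MI against Blood 14 were called lower and 0 higher, with a median log2 fold change of -0.52, against 0.15 over all tested genes, of which 13.5% were called lower. The calls were 4 of 11 other class I and class I-like heavy chains (H2-Q10, H2-T22, H2-T24 and Fcgrt), 4 of 9 genes of peptide supply (Psmb9, Psme1, Psme2 and Npepps), 2 of 15 transcription factors (Irf2 and Irf9), a share close to that of all genes, 3 of 7 genes of interferon receptors and their kinases (Ifngr1, Jak1 and Jak2) and Pirb, the 1 tested receptor for class I molecules. None of the 6 loading and chaperone genes was called. The largest changes were in H2-Q10 (-3.12 ± 0.63, limma adjusted p = 0.00422), a secreted class I-like chain, H2-T24 (-2.74 ± 0.47, adjusted p = 0.00188), and Psme2 (-2.63 ± 0.89, adjusted p = 0.0409), a subunit of the proteasome activator PA28. They were followed by Psmb9 (-2.29), an immunoproteasome subunit, Pirb (-2.12), an inhibitory receptor on myeloid cells, and Fcgrt (-1.83), the heavy chain of the neonatal Fc receptor that also pairs with B2m.

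Psmb9 is a neighbour of Tap1 in the same locus. Its values were 8.40, 38.4 and 39.6 normalized counts for the MI libraries, 39.2, 27.6 and 38.6 for MI + MSC, 91.9 and 170 for Blood, and 73.8 and 101.3 for Blood + MSC, so every cardiac library was below every blood library. The MI 13 value is 1 read. H2-Q10 had values of 42.0, 132 and 124 for the MI libraries, 232, 273 and 56.9 for MI + MSC, 770 and 805 for Blood, and 900 and 692 for Blood + MSC, again with no overlap. H2-Q10 shares sequence windows with H2-K1, so its reads are not fully separable. Psme2 in MI 13 and in Blood 21 was 3 reads each, and its Blood libraries were at 21.2 and 216.

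With MSC in both tissues 5 of the 49 pathway genes were called lower, against 5.85% of all tested genes, namely Psme2 (-3.36), H2-Q10 (-2.34), Fcgrt (-1.68), Jak1 (-1.29) and Irf2 (-1.05), all 5 of which were also called in MI against Blood, and 0 were higher. Jak1 is a kinase of the interferon receptors and Irf2 a factor that binds interferon response elements. The median over the 49 genes was -0.18, against 0.09 for all tested genes. For MSC treatment limma called 0 of the 49 genes in either tissue, with medians of 0.29 in the heart (all genes -0.01) and 0.02 in blood (all genes 0.11).

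**Figure D5:**
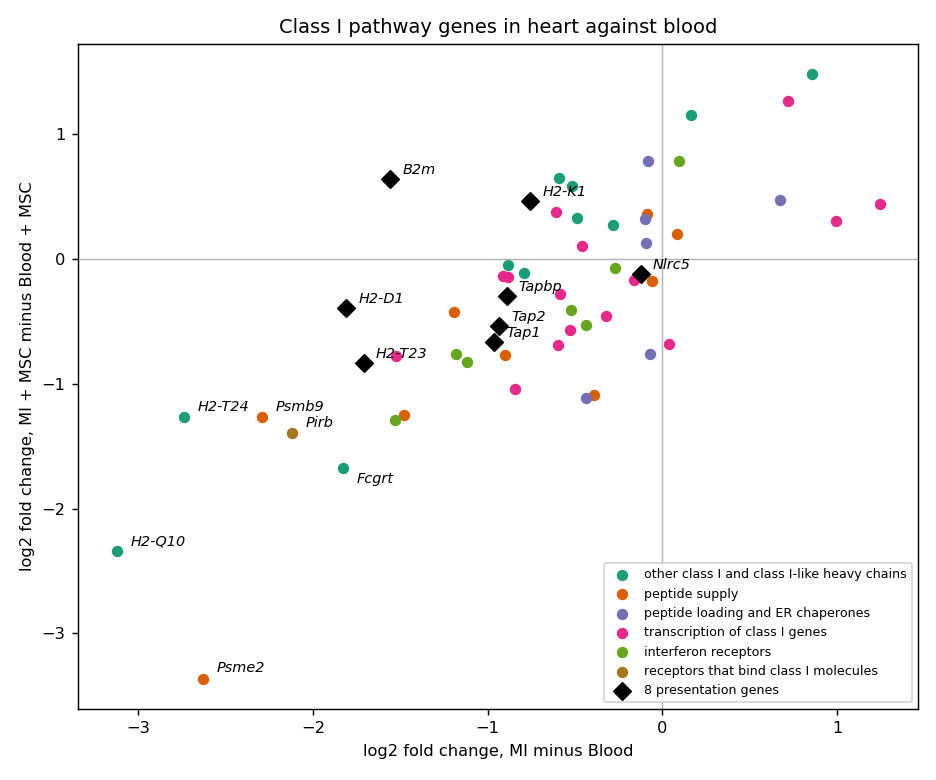
Log2 fold changes of 49 class I pathway genes (circles, coloured by list) and the 8 presentation genes (diamonds) in MI minus Blood (horizontal) and MI + MSC minus Blood + MSC (vertical). H2-Q10 (-3.12) lies farthest left and Psme2 (-3.36) lowest, and H2-K1 and B2m have signs that differ between the comparisons.

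The 8 genes did not move as 1 unit. Measured as the root mean square difference from their own mean profile over the 10 libraries, on centred log2 values, Tapbp lay nearest at 0.15 and B2m farthest at 0.56. Of 5593 other genes averaging 50 normalized counts or more, those nearest to that mean profile were Copz1 (0.0923), a coat protein of vesicles, Rab5if (0.121) and Cox7a2l (0.128), against a median of 0.598. This likeness is a description over 10 libraries that share depth and tissue.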

How the data were processed

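Ly6G+ cells of 10 libraries were analysed. Per the labels, the submitters' processing notes name Trimmomatic, Picard, STAR, featureCounts and DESeq2, on GRCm39, and the study's methods add removal of duplicate and mitochondrial reads and stranded counting. The deposited signal values are counts that the authors divided by a DESeq2 size factor per library (normalized counts). The 2 deposited tables, 1 of them named as raw, were equal in all 281850 values. All values (100%) were whole multiples of 1 read within a tolerance of 0.01, so reads were recovered. Depth was 148594 to 8602711 reads, and a count of 3 reads was taken as the floor. GENCODE vM39 named 27906 of 28185 identifiers.

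The main test was limma (3.58.1) fitted with its trend option to log2 of the normalized count plus 2, for 11549 genes averaging 10 or more, with 1 mean per group over 10 libraries and Benjamini-Hochberg adjustment over all tested genes. The pseudocount understates the changes of low genes. A gene was called at an adjusted p under 0.05 and a log2 fold change of 0.5 or more in either direction (interaction: adjusted p alone). Alternatives were other pseudocounts, filters and scalings, edgeR (4.0.16) and DESeq2 (1.42.0) on the recovered reads, and leaving out libraries. The fits were tested on simulated data. Exact permutation tests of heart against blood, the ratios, and leaving out MI 13 and Blood 21 together were added after seeing the data. The members and gene lists were chosen with earlier results of these data known. Named were all 8 members, up to 6 called pathway genes a comparison by size of change, and the 3 genes nearest to the members' mean profile. The other called genes of the pathway lists are named without values, to account for the counts, a choice made after the calls were seen. The batch tag in the labels repeats the group and could not be separated from it.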

Additional observations from a re-analysis of the deposited data

Results flagged for a closer look

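The MSC differences of H2-K1 had opposite signs in heart and blood, and limma called neither (adjusted p = 0.650 and 0.836). All 3 MI + MSC libraries lay above the 3 MI libraries, as for 7.05% of all tested genes, and both Blood + MSC libraries lay below both Blood libraries, as for 15.4%. The difference between the effects was 1.22 ± 0.62 (log2), which limma's interaction test did not call (adjusted p = 0.630, and 0.114 to 0.943 over the alternative settings). The gap in the heart is that between 1742 and 1751 normalized counts, and the log2 fold change there, 0.70, was 0.36 without MI 13.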

How the results depend on the processing

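Of the log2 fold changes of the 8 genes in the 4 comparisons of groups, recomputed under alternatives, 558 kept direction and side of the threshold, 16 lost the call, 10 gained one and 24 changed sign; the cause was not tested. Of the 152 interaction estimates under alternatives, 11 were below 0 (Nlrc5, Tap1 or Tap2) and 1 was called. The number of genes called lower in MI against Blood (3 as reported) was 1 without the filter, 1 with library size scaling, 5 with DESeq2 and 1 to 3 on leaving out a library (1 without MI 20 and 1 without MI + MSC 15). Of all tested genes, 4.89%, 7.04%, 15.7% and 9.78% to 13.8% were called lower in these fits. With MSC in both tissues (0) it was 1 with DESeq2, 0 to 1 on leaving out a library (1 without MI 13) and 2 without MI 13 and Blood 21. Of all tested genes, 11.2%, 0.348% to 10.6% (10.6% without MI 13) and 19.9% were called lower there. In blood (0) and for the interaction (0) it was 1 with DESeq2, which called 1.55% and 0.173% of all tested genes. All other counts of called members were within 1.5 times those reported (4 with edgeR in MI against Blood). H2-T23 in MI against Blood was called throughout.

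Signs changed in the heart with MSC for Tap1 (-0.0096 with library size scaling, -0.10 with edgeR, -0.11 with DESeq2, -0.32 without both shallow libraries, -0.32 to 0.41 on leaving out a library) and Tapbp (-0.0030 without both, -0.003 to 0.51 on leaving out a library). Leaving out 1 library gave -0.33 to 0.14 for H2-T23, -0.051 to 0.028 for Tap2 and -0.13 to 0.12 for Nlrc5. In blood, library size scaling gave 0.12 for Tap1, 0.0048 for Tapbp and 0.28 for Nlrc5, and TMM scaling 0.037 for Nlrc5, with leave-out ranges of -0.64 to 0.29 for Tap1 and -0.49 to 0.47 for Nlrc5. In MI against Blood, Nlrc5 was 0.39 with library size scaling and -0.61 to 0.36 on leaving out a library. Library size scaling moved the median of all genes in that comparison from 0.15 to 0.63. Relative to that median H2-D1 was at -1.92 there and at -1.96 as reported.

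The difference in the log2 ratio of B2m to the heavy chains, 0.37 as reported, was 0.22 to 0.74 on leaving out 1 library (0.74 without Blood 21) and 0.76 without MI 13 and Blood 21. The calls of all genes that moved with 1 library were 1504 in blood and 1086 in the interaction without Blood 22, and 272 to 2716 with MSC in both tissues. No paired analysis was possible because the labels give the groups no shared replicate numbers. Depth limits Tap1, Tap2 and Psmb9 in MI 13 and Blood 21, where 3 reads are 25.2 and 21.2 normalized counts.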
